A study of Mus musculus with 6 samples.

Results

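T cell genes and checkpoint receptors were examined in RNA sequenced from mouse bronchoalveolar lavage cells that the labels call alveolar macrophages. The set held 30 genes taken by symbol from the 34745 genes of the deposited table, and all 30 symbols matched 1 Ensembl gene each. It comprised 23 lineage genes (the CD3 chains, the coreceptors CD4 and CD8, receptor signalling proteins, other surface proteins and transcription factors) and 7 activation, checkpoint and regulatory genes (Ctla4, Icos, Pdcd1, Lag3, Foxp3, Il2ra and Il2rb). There were 3 libraries from Phlpp1-deficient mice and 3 from wild-type (WT) mice. All mice had received bleomycin, a drug that injures the lung, at 5 mg per kg, and lavage was done on day 7. The labels do not describe the Phlpp1 allele, the sex or age of the mice, or whether each library came from 1 animal, so the p-values cover only how far these libraries varied, and that variation may be technical.

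T cells recognise peptides through a T cell receptor whose signal is passed into the cell by the CD3 chains, the kinases Lck and Zap70 and the adaptor Lat. CD4 and CD8 mark helper and cytotoxic T cells, and CD28 and ICOS deliver costimulation. CTLA-4, PD-1 and LAG-3 are inhibitory checkpoint receptors, and FOXP3 is the defining transcription factor of regulatory T cells, which carry high levels of CTLA-4. In the airways T cells are recovered by lavage together with macrophages, and their number is known to increase after lung injury.

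Total counts lay between 13340861 and 15843764 per library. Phlpp1 itself had 23.2, 21.6 and 17.7 CPM (counts relative to the scaled library total) in Phlpp1-deficient libraries 1 to 3, against 30.3, 25.3 and 28.5 CPM in WT libraries 1 to 3, with no overlap but without passing the test (edgeR adjusted p = 0.62). The 10 alveolar macrophage markers summed to between 4985 and 9629 CPM in Phlpp1-deficient libraries and between 4518 and 6766 CPM in WT libraries, and all 10 were above 0 in log2 difference, none at an unadjusted p under 0.05 (Siglecf and Car4 had the smallest p). The 10 neutrophil markers varied within both genotypes, with 4565, 6648 and 1180 CPM in Phlpp1-deficient libraries 1 to 3 and 849, 9766 and 1866 CPM in WT libraries 1 to 3. Ly6g, Ngp and Camp were at 0 in WT library 1, Camp also in Phlpp1-deficient library 3, and Ngp and Mmp8 had the smallest p of these markers, with edgeR adjusted p-values of 1. Phlpp1-deficient libraries 1 and 2 and WT library 2 were the highest in these markers. Over all genes, Phlpp1-deficient library 3 lay nearer to WT libraries 1 and 3 (chi-square per gene 25.6 and 32.7) than to Phlpp1-deficient libraries 1 and 2 (97.0 and 86.1).

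Every T cell gene of the set was counted in every library, with 89 counts as the lowest value (Lag3 in WT library 2), so all 30 passed the filter on low counts. Together they summed to 4308, 3142 and 3719 CPM in Phlpp1-deficient libraries 1 to 3 and to 3486, 2884 and 3387 CPM in WT libraries 1 to 3. These sums made up 0.431, 0.314 and 0.372 percent of the scaled library totals, not of the raw counts, in Phlpp1-deficient libraries 1 to 3. In WT libraries 1 to 3 they made up 0.349, 0.288 and 0.339 percent of the scaled totals. The cells labelled alveolar macrophages thus held RNA of T cells in all 6 libraries, Trac of the receptor alpha chain included. In bulk RNA, fewer cells of a type cannot be told apart from less RNA per cell.

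Per gene length, Thy1, a surface glycoprotein of mouse T cells, had the highest level of the 30 genes, with a mean of 188 FPKM (a level scaled by gene length and library total) over the 6 libraries. Il7r, the receptor chain for the survival cytokine interleukin-7, followed with 125 FPKM. Cd3g had 106 FPKM, Tcf7, a transcription factor of naive and memory T cells, 95.4 FPKM and Cd3e 86.9 FPKM. Themis, a signalling protein of developing T cells, had the lowest level at 3.61 FPKM, below Foxp3 at 4.94 FPKM and Gata3 at 4.96 FPKM.

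**Figure D1:**
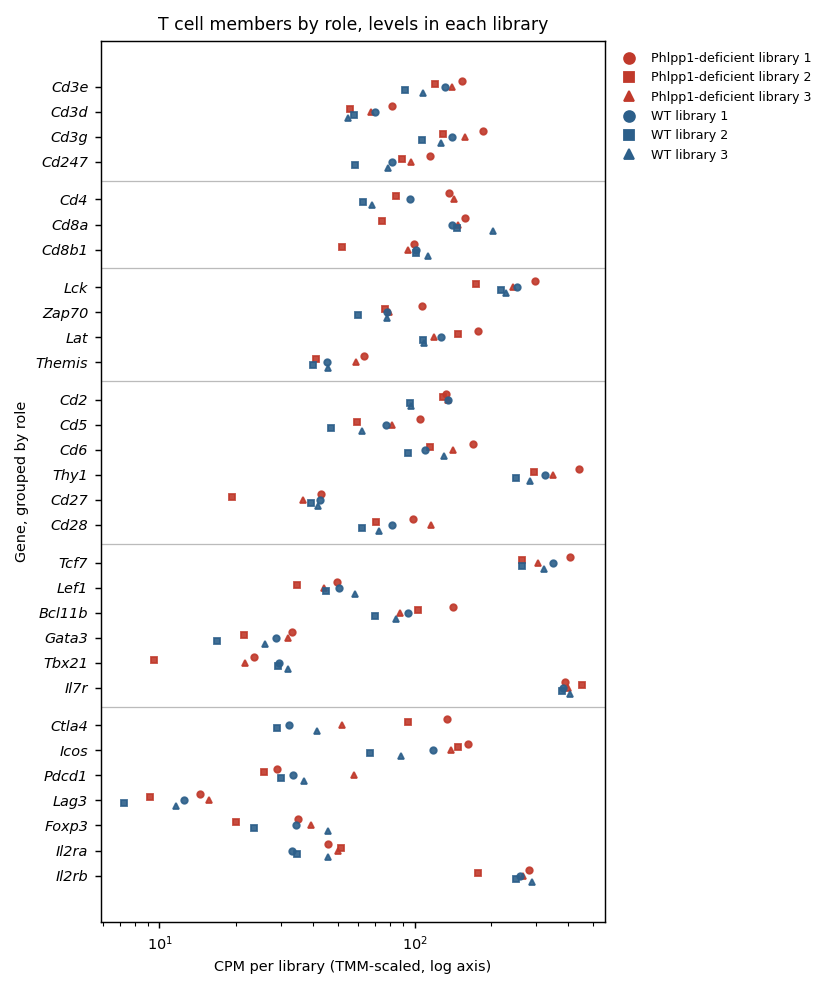
CPM of each of the 30 genes (rows, grouped by role) in each library on a log axis, with Phlpp1-deficient libraries in red and WT libraries in blue and the marker shape giving the library number. WT library 2 is the lowest library for 18 of the 30 genes and Phlpp1-deficient library 1 the highest for 17.

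None of the 30 genes passed the test between the genotypes at an adjusted p under 0.05 (edgeR quasi-likelihood), against 14 of the 14037 genes tested (0.0997%). With DESeq2, Ctla4 was the only one of the 30 to pass, at an adjusted p of 0.00866, where 199 genes passed (1.42%). At an unadjusted p under 0.05 there were 5 of the 30 genes, against 6.96% of all genes tested. All 5 were higher in Phlpp1-deficient libraries, where 3.40% of all genes tested were higher and 3.56% lower at that p. These 5 were Ctla4, Icos, Cd4, Cd247 and Il2ra. Leaving out WT library 2 gave 2 genes at that p, and leaving out WT library 3 or Phlpp1-deficient library 1 gave 3.

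The log2 difference, Phlpp1-deficient minus WT, was above 0 for 23 of the 30 genes, where 45.7% of all genes tested were above 0. Its median was 0.30 over the 30 genes and -0.02 over all genes tested. The genes were counted in the same libraries, and many are markers of the same cells, so they are not separate pieces of evidence. The median was 0.28 over the 23 lineage genes and 0.32 over the 7 activation, checkpoint and regulatory genes, so by their medians these groups lay close together. The activation group ranged from -0.14 to 1.45 and the lineage group from -0.72 to 0.69. Leaving out Phlpp1-deficient library 1 gave a median of 0.19 over all 30 genes, and leaving out WT library 2 gave 0.20. The lineage median was 0.17 without Phlpp1-deficient library 1. The activation median was 0.14 when WT library 2 was left out, and 0.19 when Phlpp1-deficient library 3 was. Every Phlpp1-deficient library lay above every WT library for 4 of the 30 genes (Ctla4, Icos, Il2ra and Cd247), against 4.57% of all genes. The reverse held for 2 genes (Cd8b1 and Tbx21), against 6.53% of all genes.

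**Figure D2:**
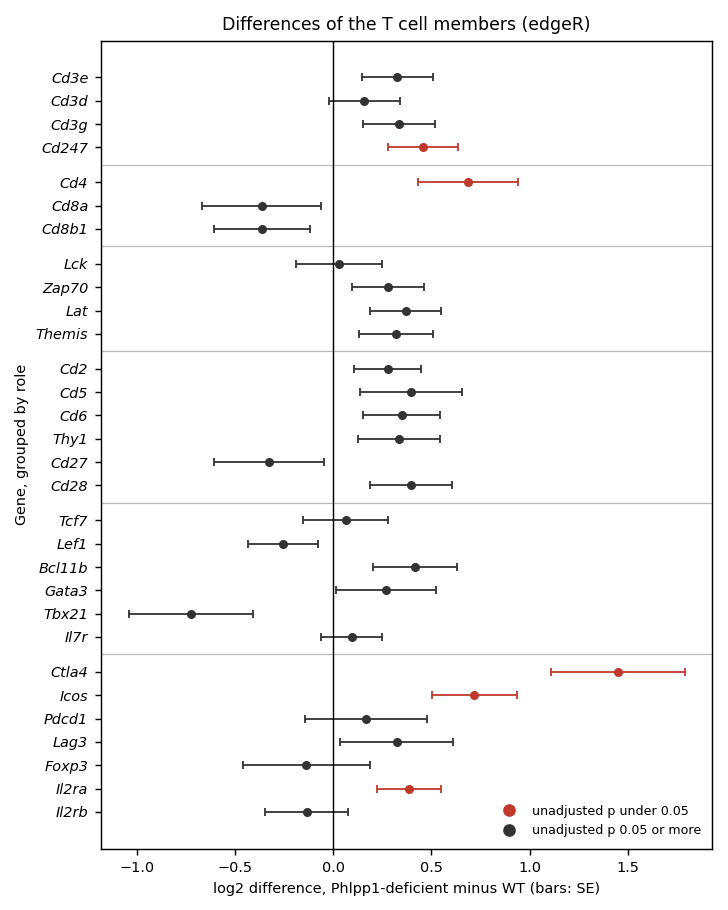
log2 difference of each gene, Phlpp1-deficient minus WT, from edgeR, with bars showing 1 standard error (SE), grouped by role. Points in red have an unadjusted p under 0.05, and Ctla4 at 1.45 lies farthest from 0.

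The CD3 chains, which carry the signal of the T cell receptor, were all above 0 in log2 difference. Cd3e (chromosome 9, 44998740 to 45009627, GRCm38) had 154, 120 and 140 CPM in Phlpp1-deficient libraries 1 to 3, against 131, 91.8 and 108 CPM in WT libraries 1 to 3. The groups overlapped, through WT library 1 and Phlpp1-deficient library 2. Its log2 difference of 0.33 (SE 0.18) had an edgeR adjusted p of 0.851. Cd3g and Cd3d, which lie beside Cd3e on the same chromosome, had log2 differences of 0.34 (SE 0.18) and 0.16 (SE 0.18). Cd247, the zeta chain, had 114, 89.3 and 97.0 CPM in Phlpp1-deficient libraries, against 81.8, 58.2 and 79.0 CPM in WT libraries. Its groups did not overlap, and the unadjusted p was 0.0362 for a log2 difference of 0.46 (SE 0.18), with an edgeR adjusted p of 0.651. Exons of Cd247 overlap those of Pou2f1 on the opposite strand and those of Gm16565 on the same strand. Exons of Cd3e overlap those of an antisense gene. Themis, Lef1 and Gata3 also have exons that overlap those of other genes, for Gata3 on the same strand too. Exons of Lck, Lat and Cd27 overlap microRNA genes on the same strand. No source used here states whether counting used strand, so the reads of overlapping genes may be mixed.

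The coreceptors pointed in opposite directions. Cd4 had 137, 84.9 and 143 CPM in Phlpp1-deficient libraries 1 to 3, against 96.0, 63.0 and 67.8 CPM in WT libraries 1 to 3. Phlpp1-deficient libraries 1 and 3 lay above all WT libraries, and library 2 lay below WT library 1. The log2 difference was 0.69 (SE 0.25, unadjusted p = 0.0297, edgeR adjusted p = 0.619). Cd8a had 158, 74.4 and 148 CPM in Phlpp1-deficient libraries, against 140, 146 and 203 CPM in WT libraries. The groups overlapped, with Phlpp1-deficient library 2 far below the other 5 libraries, and the log2 difference of -0.36 (SE 0.30) had an edgeR adjusted p of 0.979. Cd8b1, the beta chain, had 99.4, 52.0 and 94.0 CPM in Phlpp1-deficient libraries, against 102, 102 and 113 CPM in WT libraries. Its groups did not overlap, but without Phlpp1-deficient library 2 its log2 difference was -0.12, against -0.36 with it. CD4 is known from some macrophages and dendritic cells too, and their part in these values was not tested.

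The log2 ratio of Cd4 to Cd8a was -0.21, 0.19 and -0.04 in Phlpp1-deficient libraries 1 to 3, against -0.54, -1.22 and -1.58 in WT libraries 1 to 3. All Phlpp1-deficient libraries lay above all WT libraries, at -0.02 ± 0.20 against -1.11 ± 0.53 (SD, n = 3 each). This ratio was chosen after the values were seen, and no test was made on it.

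No receptor signalling gene reached an unadjusted p under 0.05, and the groups overlapped for all 4. Lck, the kinase bound to the coreceptors, had 238 ± 60.9 CPM in Phlpp1-deficient and 233 ± 17.2 CPM in WT libraries (SD, n = 3 each), and its log2 difference was 0.03. Zap70, the kinase that binds the phosphorylated CD3 chains, had a log2 difference of 0.28 (SE 0.18). Lat, the adaptor that Zap70 phosphorylates, had 0.37 (SE 0.18) and Themis 0.32 (SE 0.19). The edgeR adjusted p-values of the 4 genes lay between 0.807 and 1.

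Of the other surface proteins, Cd2, Cd5, Cd6, Thy1 and Cd28 had log2 differences between 0.28 and 0.40. Cd28, the costimulatory receptor of naive T cells, had 98.5, 70.8 and 116 CPM in Phlpp1-deficient libraries, against 81.5, 62.0 and 72.8 CPM in WT libraries. The groups overlapped, and the edgeR adjusted p was 0.838. Cd27, a costimulatory receptor of the TNF receptor family, had 43.0, 19.2 and 36.6 CPM in Phlpp1-deficient libraries, against 42.7, 39.4 and 41.7 CPM in WT libraries. Its log2 difference was -0.33 (SE 0.28), and Phlpp1-deficient library 2 was again the lowest library. None of these 6 genes reached an unadjusted p under 0.05.

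Among the transcription factors Tbx21 stood lowest. Tbx21, which encodes T-bet, the factor of type 1 helper, cytotoxic and natural killer (NK) cells, had 23.4, 9.54 and 21.7 CPM in Phlpp1-deficient libraries, against 29.3, 29.1 and 31.8 CPM in WT libraries. All Phlpp1-deficient libraries lay below all WT libraries, and library 2 was by far the lowest. The log2 difference was -0.72 (SE 0.32, unadjusted p = 0.0551, edgeR adjusted p = 0.731), and -0.42 without Phlpp1-deficient library 2. Gata3, the factor of type 2 helper T cells, had a log2 difference of 0.27 (SE 0.25), and Bcl11b, which maintains T cell identity, had 0.41 (SE 0.21). Tcf7 had 0.06 (SE 0.22) and Lef1, its relative in naive T cells, -0.26 (SE 0.18). Il7r had 414 ± 33.7 CPM in Phlpp1-deficient and 388 ± 16.1 CPM in WT libraries (SD, n = 3 each), with overlapping groups.

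NK cell markers lay in the same direction as Tbx21, which NK cells also express. Of the 12 NK markers, 12 were below 0 in log2 difference, where 45.7% of all genes tested were above 0, and the median was -0.84. Every Phlpp1-deficient library lay below every WT library for 6 of them, against 6.53% of all genes, and the groups overlapped for 6. Gzmb turned to 0.10 without WT library 3, and Nkg7 to 0.07 without Phlpp1-deficient library 2. At an unadjusted p under 0.05, 5 were lower, against 3.56% of all genes tested. They summed to 335, 197 and 287 CPM in Phlpp1-deficient libraries 1 to 3, against 318, 380 and 441 CPM in WT libraries 1 to 3, and none was at 0 in any library. Klra4 and Klra8, NK cell receptors, had log2 differences of -2.52 and -1.77, with edgeR adjusted p-values of 0.142 and 0.425, and both passed with DESeq2. The part of NK cells in the values of Tbx21 was not tested, nor was that of cells other than T cells in the values of Cd8a. The part of cytotoxic T cells in the values of the 12 NK markers was not tested either.

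Ctla4, the inhibitory receptor that competes with CD28 for its ligands, had the largest log2 difference of the 30 genes. It had 134, 94.5 and 51.8 CPM in Phlpp1-deficient libraries 1 to 3, against 32.2, 28.9 and 41.5 CPM in WT libraries 1 to 3. Phlpp1-deficient library 1 was the highest and library 3 lay just above the highest WT library. The means were 93.5 ± 41.2 CPM in Phlpp1-deficient and 34.2 ± 6.54 CPM in WT libraries (SD, n = 3 each). The log2 difference was 1.45 (SE 0.34, unadjusted p = 0.00369, edgeR adjusted p = 0.397), a 2.73-fold difference that ranked 128 by p among all genes tested. Leaving out single libraries gave log2 differences between 1.09 and 1.76 and edgeR adjusted p-values between 0.0696 and 0.865.

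Promoter windows from RefSeq (GRCm38.p6, 250 bases before and 50 after the annotated start) were found for 21 of the 30 genes. They are shown for the members farthest above and farthest below 0 in log2 difference, Ctla4 (chr1:60908775-60909074, plus strand) and Tbx21 (chr11:97115282-97115581, minus strand), and for Il17a, a T cell cytokine gene outside the set that is described further on (chr1:20730655-20730954, plus strand). Capitals mark matches on either strand to TGGAAA (the core of NFAT sites), AGGTCA (bound by nuclear receptors), TGANTCA (an AP-1 site) or TATAAA.
Ctla4: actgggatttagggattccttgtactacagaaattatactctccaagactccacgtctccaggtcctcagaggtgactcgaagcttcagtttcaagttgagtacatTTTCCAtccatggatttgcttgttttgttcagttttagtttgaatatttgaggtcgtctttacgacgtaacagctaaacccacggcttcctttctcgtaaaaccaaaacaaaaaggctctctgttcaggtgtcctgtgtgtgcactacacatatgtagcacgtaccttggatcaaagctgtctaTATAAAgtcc
Tbx21: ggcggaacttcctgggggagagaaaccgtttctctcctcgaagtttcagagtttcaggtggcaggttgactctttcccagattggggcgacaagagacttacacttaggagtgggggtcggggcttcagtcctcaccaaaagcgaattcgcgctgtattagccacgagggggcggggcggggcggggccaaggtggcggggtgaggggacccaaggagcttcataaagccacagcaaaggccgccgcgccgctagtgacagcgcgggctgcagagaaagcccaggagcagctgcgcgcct
Il17a: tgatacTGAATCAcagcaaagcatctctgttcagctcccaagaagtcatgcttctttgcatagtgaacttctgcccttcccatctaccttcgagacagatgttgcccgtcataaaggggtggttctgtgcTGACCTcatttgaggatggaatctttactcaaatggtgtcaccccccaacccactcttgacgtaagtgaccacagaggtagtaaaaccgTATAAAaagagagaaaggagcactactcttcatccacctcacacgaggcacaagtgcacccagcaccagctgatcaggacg

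The Ctla4 window held TGGAAA on the minus strand, from -144 to -139 relative to the annotated start, and TATAAA from 41 to 46. This window lies inside Ctla4 as annotated in GENCODE M21 (60887000 to 60915832), so the RefSeq start used for it is not the GENCODE start of the gene. The Il17a window held TGANTCA from -244 to -238, AGGTCA on the minus strand from -120 to -115 and TATAAA from -31 to -26. The Tbx21 window held none of the 4 motifs. TGGAAA occurred in 5 of the 21 windows (23.8%, Cd3e, Cd3g, Zap70, Cd5 and Ctla4), against 21.5% of the windows of 27025 genes. TATAAA occurred in 3 (14.3%, Bcl11b, Ctla4 and Foxp3), against 14.2%, and AGGTCA in 1 (4.76%, Pdcd1), against 16.0%. TGANTCA occurred in 0 of 21, against 7.93%. A match describes these letters only and is not evidence of binding.

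Icos, the inducible costimulator next to Ctla4 on chromosome 1 (Icos at 60977927 to 61000320, Ctla4 at 60887000 to 60915832), had 162, 148 and 139 CPM in Phlpp1-deficient libraries, against 118, 67.1 and 88.6 CPM in WT libraries. The Phlpp1-deficient libraries were close to each other and all lay above the WT libraries. The log2 difference was 0.72 (SE 0.22, unadjusted p = 0.0124, edgeR adjusted p = 0.506). Cd28, of the same receptor family and the same stretch of chromosome 1 (60716800 to 60773359), had the smaller log2 difference of 0.40 given above, and the differences among the 3 genes were not tested.

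Foxp3 did not share the direction of Ctla4. It had 34.8, 19.9 and 39.3 CPM in Phlpp1-deficient libraries 1 to 3, against 34.2, 23.5 and 45.6 CPM in WT libraries 1 to 3. The groups overlapped, with the lowest library Phlpp1-deficient and the highest WT, and the log2 difference of -0.14 (SE 0.32) had an edgeR adjusted p of 1. Its sign turned without Phlpp1-deficient library 2 (0.10), as it did without WT library 3 (0.15). Exons of Foxp3 overlap those of Ccdc22 and Ppp1r3f on the opposite strand and those of Flicr on the same strand, so its counts are uncertain.

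Il2ra, the alpha chain of the interleukin-2 receptor and also a marker of regulatory T cells, had 45.9, 51.6 and 50.2 CPM in Phlpp1-deficient libraries, against 33.0, 34.5 and 45.6 CPM in WT libraries. The groups did not overlap, although Phlpp1-deficient library 1 and WT library 3 nearly met, and the log2 difference was 0.38 (SE 0.16, unadjusted p = 0.0492, edgeR adjusted p = 0.715). Il2rb, the beta chain shared with NK cells, had -0.14 (SE 0.21). Pdcd1, which encodes PD-1, had 28.9, 25.8 and 57.8 CPM in Phlpp1-deficient libraries, against 33.5, 29.9 and 36.9 CPM in WT libraries. Only Phlpp1-deficient library 3 lay above the WT libraries, and without it the log2 difference was -0.27 in place of 0.17. Lag3, a checkpoint receptor that binds MHC class II, had 13.1 ± 3.46 CPM in Phlpp1-deficient and 10.5 ± 2.82 CPM in WT libraries (SD, n = 3 each) and a log2 difference of 0.32 (SE 0.29).

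**Figure D3:**
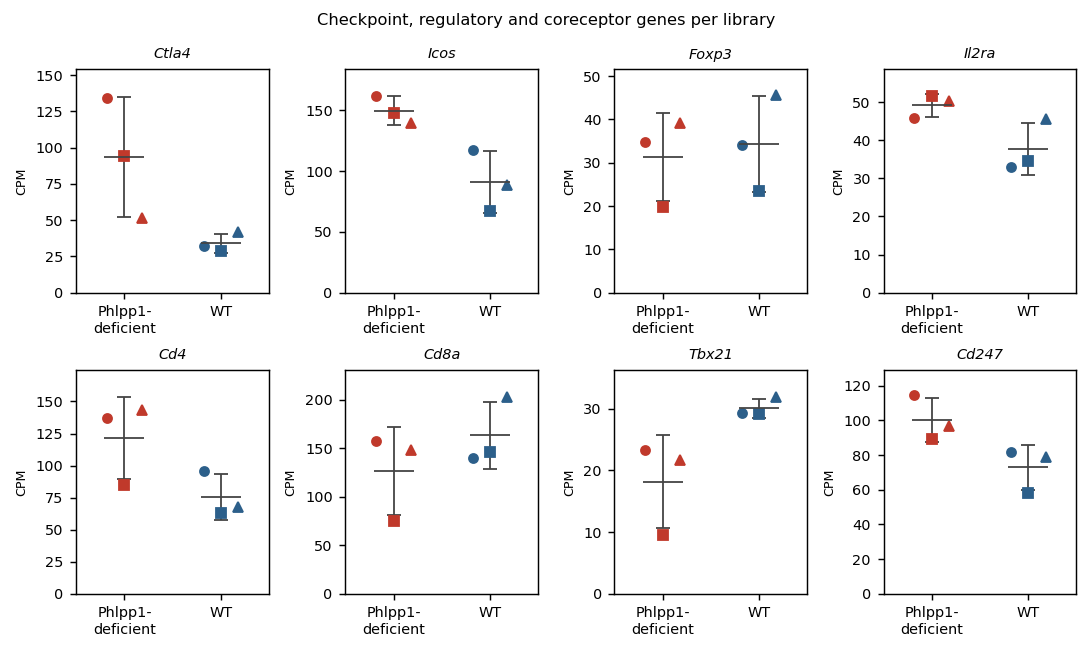
CPM per library of 8 of the genes, from 0, with the mean and SD of each genotype (n = 3) and the marker shape giving the library number. Ctla4 and Icos lie higher in all Phlpp1-deficient libraries, the Foxp3 groups overlap, and Phlpp1-deficient library 2 is lowest for Cd8a and Tbx21.

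Set against the CD3 genes of the same library (mean log2 CPM of Cd3e, Cd3d and Cd3g), Ctla4 had a log2 ratio of 0.02, -0.01 and -1.14 in Phlpp1-deficient libraries 1 to 3, against -1.75, -1.52 and -1.13 in WT libraries 1 to 3. Phlpp1-deficient libraries 1 and 2 lay above all WT libraries, and library 3 lay among them. Icos had 0.29, 0.64 and 0.29 in Phlpp1-deficient libraries, against 0.11, -0.30 and -0.04 in WT libraries, and here the groups did not overlap. Foxp3 had ratios of -1.91 ± 0.36 in Phlpp1-deficient and -1.49 ± 0.44 in WT libraries (SD, n = 3 each), with overlapping groups. The log2 ratio of Ctla4 to Foxp3 was 1.94, 2.25 and 0.40 in Phlpp1-deficient libraries 1 to 3, against -0.08, 0.30 and -0.13 in WT libraries 1 to 3, a ratio added after the values were seen. No test was made on any of these ratios.

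**Figure D4:**
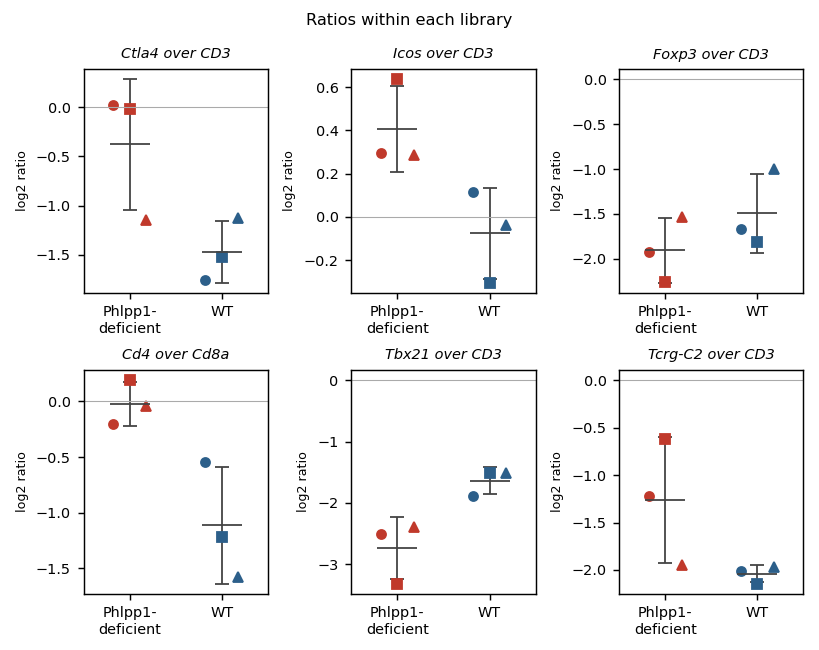
log2 ratios within each library, with the mean and SD of each genotype (n = 3), where CD3 stands for the mean log2 CPM of Cd3e, Cd3d and Cd3g. Icos over CD3 and Cd4 over Cd8a are higher in every Phlpp1-deficient library, Tbx21 over CD3 is lower in every one, and Ctla4 over CD3 overlaps through Phlpp1-deficient library 3. Only the ratios of Ctla4, Icos and Foxp3 to CD3 were planned. Of ratios not shown, Cd4 over CD3 was higher in every Phlpp1-deficient library. The groups overlapped for Cd8a, Cd28, Il2ra, Trac, Trdc and Tcrg-C1 over CD3.

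Markers of B cells, some of which also carry Cd5 and Cd27, were uneven across libraries. The 10 B cell markers summed to 1201, 327 and 476 CPM in Phlpp1-deficient libraries 1 to 3, against 379, 159 and 196 CPM in WT libraries 1 to 3. Phlpp1-deficient library 1, the highest in Ctla4, was also the highest in B cell markers. All 10 were above 0 in log2 difference, with a median of 1.57, none was at 0 in any library, and Blk and Ebf1 had 1.47 and 1.97 (edgeR adjusted p = 0.512 and 0.568). The 9 dendritic cell markers had a median log2 difference of 0.00, with 5 above and 4 below 0. Siglech and Ccr9 had 1.51 and 1.45 (edgeR adjusted p = 0.506 and 0.397), and Ccr9 passed with DESeq2 (adjusted p = 0.0115). Xcr1 and Cd209a, named after their values were seen, had -0.84 and -2.12 (edgeR adjusted p = 0.512 and 0.806). Together the 9 summed to between 239 and 325 CPM in Phlpp1-deficient and between 229 and 288 CPM in WT libraries, with Cd209a at 0 in Phlpp1-deficient library 3. Of the markers of group 2 innate lymphoid cells, which share Gata3, Il7r, Thy1 and Icos with T cells, Il5 and Il13 were too low to be tested, Il13 was at 0 in WT libraries 2 and 3, and Areg and Ptgdr2 had log2 differences of 1.20 and 1.39. The 8 markers of group 2 innate lymphoid cells summed to between 48.6 and 74.0 CPM in Phlpp1-deficient and between 39.5 and 49.9 CPM in WT libraries. The part of these cells in the values of Ctla4 and Icos was not tested.

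**Figure D5:**
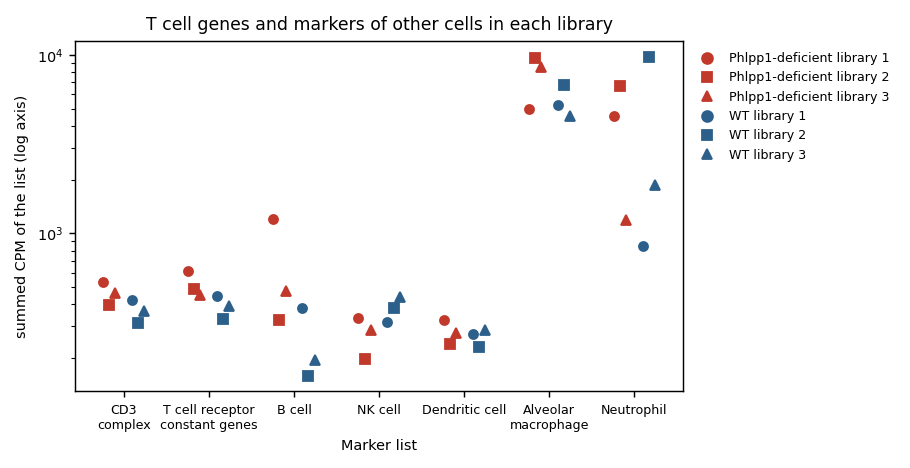
Summed CPM of each marker list in each library on a log axis, with Phlpp1-deficient libraries left of WT libraries. The neutrophil sums range over both genotypes, and the B cell sum is highest in Phlpp1-deficient library 1.

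The constant genes of the T cell receptor encode parts of its alpha and beta or of its gamma and delta chains. Which cells held their RNA was not tested. Trac of the alpha chain had 190, 112 and 175 CPM in Phlpp1-deficient libraries 1 to 3, against 154, 117 and 145 CPM in WT libraries 1 to 3. The groups overlapped, the log2 difference was 0.20 (SE 0.23), and the beta chain genes Trbc1 and Trbc2 had 0.09 and 0.25. Tcrg-C2 of the gamma chain had 57.0, 62.0 and 29.7 CPM in Phlpp1-deficient libraries, against 27.0, 18.7 and 23.2 CPM in WT libraries. Phlpp1-deficient libraries 1 and 2 stood apart, and library 3 lay just above the highest WT library. The log2 differences of Tcrg-C2, Tcrg-C1, Tcrg-C4 and of Trdc, the delta chain gene, were 1.11, 0.80, 0.46 and 0.68, with edgeR adjusted p-values of 0.435, 0.551, 0.851 and 0.651. Of these 7 constant genes, 3 were higher in Phlpp1-deficient libraries at an unadjusted p under 0.05, against 3.40% of all genes tested, and 0 were lower. Trbc1 and Trbc2 share 521 bases at 95.6% identity, and Tcrg-C1 shares 649 bases at 96.9% identity with Tcrg-C3, so reads could be split between them. Tcrg-C2 passed with DESeq2 (adjusted p = 0.0447).

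Among 29 further T cell genes, 8 had an unadjusted p under 0.05, all higher in Phlpp1-deficient libraries, against 3.40% of all genes tested, and none passed over all genes with edgeR. Rora, a nuclear receptor of type 17 and type 2 lymphocytes, had 99.8, 97.0 and 95.4 CPM in Phlpp1-deficient libraries, against 56.0, 35.8 and 49.2 CPM in WT libraries. The groups were well separated. A log2 difference of 1.05 (SE 0.18) came with adjusted p-values of 0.158 in edgeR and 0.000148 in DESeq2. Il17a, the cytokine of type 17 and many gamma-delta T cells, had 54.9, 46.2 and 3.76 CPM in Phlpp1-deficient libraries 1 to 3, against 3.91, 0.896 and 1.18 CPM in WT libraries 1 to 3. It was high in Phlpp1-deficient libraries 1 and 2, while library 3 lay below WT library 1, and a log2 difference of 4.09 (SE 1.03) came with adjusted p-values of 0.425 in edgeR and 0.0214 in DESeq2. It was 5.05 without WT library 1 and 3.01 with limma on log2(FPKM + 1). Ccr6, a chemokine receptor of type 17 cells that was named after its values were seen, had 59.6, 35.1 and 30.7 CPM in Phlpp1-deficient libraries, against 24.5, 9.12 and 14.8 CPM in WT libraries. The groups did not overlap, and the log2 difference was 1.37 (SE 0.40). Phlpp1-deficient library 1 was the highest and WT library 2 the lowest, as for the summed B cell markers. The part of B cells in the values of Ccr6 was not tested. Ifng, which encodes interferon gamma and was also named after its values were seen, lay opposite in direction to Tbx21 and the NK cell markers. It had 5.38, 4.77 and 3.68 CPM in Phlpp1-deficient libraries, against 3.07, 2.53 and 1.84 CPM in WT libraries. The groups did not overlap, and the log2 difference was 0.89 (SE 0.30, edgeR adjusted p = 0.558).

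Of 10 further regulatory T cell genes, 9 were tested and 3 had an unadjusted p under 0.05. All 3 were higher in Phlpp1-deficient libraries, as were 3.40% of all genes tested at that p. Il10, an anti-inflammatory cytokine that macrophages and B cells make too, had 10.8, 5.95 and 1.55 CPM in Phlpp1-deficient libraries, against 0.902, 1.22 and 1.05 CPM in WT libraries. The groups did not overlap, and library 3 was again nearest to WT. The log2 difference of 2.52 (SE 0.67) had adjusted p-values of 0.435 in edgeR and 0.0132 in DESeq2. It was 1.82 without Phlpp1-deficient library 1 and 1.42 with limma on log2(FPKM + 1). Ikzf2, a factor of many regulatory T cells, differed by 0.48 in log2 (SE 0.18), at an edgeR adjusted p of 0.651. Of 13 other checkpoint and costimulatory receptors, Havcr2, which encodes TIM-3 and is also carried by macrophages, had the smallest p, with 101, 153 and 151 CPM in Phlpp1-deficient libraries against 161, 305 and 219 CPM in WT libraries. All Phlpp1-deficient values lay below the WT values (log2 difference -0.76, SE 0.28, edgeR adjusted p = 0.612). Btla, shared with B cells, had 137, 72.8 and 69.6 CPM in Phlpp1-deficient libraries 1 to 3, against 62.3, 65.5 and 66.9 CPM in WT libraries 1 to 3. Its log2 difference was 0.52 (SE 0.27), and 0.13 without Phlpp1-deficient library 1.

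The ligands of these receptors are carried mostly by macrophages and dendritic cells. Of 14 ligand genes 12 were tested and 1 (Tnfsf9) had an unadjusted p under 0.05, against 6.96% of all genes tested. The log2 differences ranged from -0.43 to 1.93 with a median of 0.06. Cd80 and Cd86, bound by both CD28 and CTLA-4, had log2 differences of 0.22 (SE 0.16) and 0.13 (SE 0.13), and Icosl, bound by ICOS, had 0.11 (SE 0.48). Cd274, which encodes PD-L1, had 264 ± 33.6 CPM in Phlpp1-deficient and 294 ± 73.1 CPM in WT libraries (SD, n = 3 each). These 4 ligands were named after their values were seen, as partners of the genes above. Tnfsf9, the 4-1BB ligand, had 39.9, 27.8 and 5.75 CPM in Phlpp1-deficient libraries, against 6.56, 7.98 and 4.72 CPM in WT libraries, high in the same 2 libraries as Il17a. Tnfrsf14, which binds BTLA, differed by -0.43 in log2 (SE 0.21), at an edgeR adjusted p of 0.797. Tnfsf9 differed by 1.93 (SE 0.64) at an edgeR adjusted p of 0.551, and passed without Phlpp1-deficient library 3.

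Of 11 genes of interleukin-2 and interleukin-7 signalling, 9 were tested, and Il2 and Il7 themselves were too low. Socs1, an inhibitor of cytokine signalling, had 16.9, 12.1 and 6.93 CPM in Phlpp1-deficient libraries, against 25.5, 38.4 and 25.3 CPM in WT libraries. The groups did not overlap (log2 difference -1.31, SE 0.34, edgeR adjusted p = 0.433, DESeq2 adjusted p = 0.0450). Cish, an inhibitor induced by STAT5, had 112, 310 and 161 CPM in Phlpp1-deficient libraries, against 129, 121 and 88.5 CPM in WT libraries, with overlapping groups.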

How the data were processed

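Per the submitters' processing notes, HISAT2, StringTie 1.3.0, edgeR and mm10 were used, with no role given. Annotation, strand setting and counter were not given in the sources used here. Per the file headers, the deposited table has a count column and an FPKM column for each of 6 libraries over 34745 genes, and all columns were matched to samples by name. The deposited counts are whole numbers and unscaled, and the deposited FPKM values are scaled by length and library total. Gene IDs were matched to GENCODE M21 (GRCm38), which named 34267 IDs. Coordinates are 1-based positions of that annotation.

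Counts were tested in edgeR 4.0.16 (R 4.3.3) with filterByExpr, TMM scaling, glmQLFit with robust=TRUE and glmQLFTest, and Benjamini-Hochberg adjustment over all 14037 genes tested. The test was checked on simulated data. SE was obtained from the F statistic, as the absolute log2 difference over its square root. CPM values use TMM-scaled totals, and ratios use log2 CPM with a prior count of 0.5. Libraries of 1 group always differed by more than sampling noise (chi-square at least 30.6 per gene, 14071 genes), and the closest pair of all joined the genotypes. Alternatives were DESeq2 1.42.0, limma 3.58.1 (voom and log2 FPKM), other scalings and filters, a replicate block and leaving out each library. The members and lists were chosen with earlier results of these data known. The text names all 30 members, all T cell receptor constant genes, and from each other list the 2 tested genes with the smallest p. Ccr6, Ifng, Gzmb, Nkg7, 4 ligands, Xcr1 and Cd209a fall outside this rule and were chosen after their values were seen. The same holds for genes named as at 0 or too low to test (Ly6g, Camp, Il5, Il13, Il2 and Il7). The result of 1 gene of the lists is not reported here. Transcripts of these genes were searched for copies with blastn 2.17.0 (at least 95% identity over 150 bases). Besides the receptor genes, Cd8b1, Il2ra and Tnfrsf14 had matches of 154 to 164 bases, and Klra8 one of 1115 bases.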

Additional observations from a re-analysis of the deposited data

How the results depend on the processing

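With the replicate number as a block, 1 gene was called, against 14 without it, and 0 of the 30 T cell genes. The numbers were not treated as pairs, since the labels do not say that they pair libraries. Deviations of same-numbered libraries from their group means correlated at -0.11, 0.31 and 0.27, and Phlpp1-deficient library 1 correlated best with WT library 2. With 3 libraries per group, deviations are tied to each other, so these correlations cannot decide whether the libraries were paired. Over all genes, 199 were called with DESeq2, 23 with limma-voom, 36 without a filter on low counts, and 22 and 27 with limma on log2(FPKM + 1) and log2(FPKM + 0.1). Leaving out single libraries gave between 1 and 32 genes, the lowest when WT library 3 was out and the highest when Phlpp1-deficient library 3 was. Of the 30 T cell genes, 1 was called with DESeq2 (Ctla4) and 0 under every other alternative. The number at an unadjusted p under 0.05 was 3 with library totals in place of TMM and 2 with limma on log2(FPKM + 1) and on log2(FPKM + 0.1), and lay between 2 and 7 when single libraries were left out. Of the 30 genes, 25 kept the direction of their log2 difference in all 15 alternatives. The other 5 changed sign in 8 of their values: Lck with the block (-0.000104) and, over the libraries left out, Lck (-0.16 to 0.21), Tcf7 (-0.13 to 0.19), Pdcd1 (-0.27 to 0.37), Foxp3 (-0.33 to 0.15) and Il2rb (-0.26 to 0.046). Limma on log2(FPKM + 1), which understates low genes, also gave lower log2 differences for Ebf1 (0.82), Siglech (0.76), Ccr9 (0.69) and Ptgdr2 (0.57), and -1.76 for Klra4. Ebf1 was 1.15 without Phlpp1-deficient library 1 and 2.70 without WT library 1, and Siglech 0.87 without Phlpp1-deficient library 3. The causes were not tested.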
